A study of Homo sapiens with 34 samples.

Results

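The MHC class II genes and CIITA were followed as 10 genes, chosen by symbol from 23368 gene symbols counted in each library. They were the transcriptional coactivator gene CIITA, the invariant chain gene CD74, the antigen-presenting chain genes HLA-DRA, HLA-DRB1, HLA-DPA1, HLA-DPB1, HLA-DQA1 and HLA-DQB1, and the peptide-loading genes HLA-DMA and HLA-DMB. No measured value entered the choice. RNA was sequenced from 6 human blood cancer lines after 10 µM etoposide for 4 h or as a control, called untreated here. The treatment protocol text names etoposide for control samples too, so the titles and the treatment label were followed. Etoposide traps topoisomerase II on cut DNA and leaves double-strand breaks. Per the labels, NALM6 and 697 are pre-B lines from acute lymphoblastic leukemia, RAMOS is a B line from Burkitt's lymphoma, JURKAT is a line from acute T cell leukemia, and THP1 and U937 are monocyte lines. Each group had 3 libraries, except 2 for etoposide-treated 697 and 2 for untreated U937, and each line is 1 culture model of 1 tumour.

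MHC class II molecules are pairs of an alpha and a beta chain that show peptides from the endosomes to CD4+ T cells. B cells, dendritic cells and macrophages carry them, and human T cells can gain them on activation. The promoters of these genes hold shared X and Y boxes that bind the RFX, CREB and NF-Y factors, and CIITA, which does not bind DNA itself, docks on that complex and switches transcription on. CD74 fills the groove of a new class II molecule and guides it to the endosome, and HLA-DM exchanges the last CD74 fragment for a peptide.

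Promoter sequence is shown for the 6 genes that rose in at least 1 line and matched an entry of the RefSeq promoter table, so that the shared boxes can be read beside the values. In that table (build GRCh38.p14), 8 of the 10 genes matched. CIITA and HLA-DRA have no sequence here. Each line gives the 140 bases from position -170 to position -31 relative to the start of the gene, 5′ to 3′ on the gene's strand. Capitals mark matches, on either strand, to AGNNACNG, which lies within the X box of several class II promoters, or to ATTGG, the inverted CCAAT core of the Y box. These patterns, the longer one and the arrangement below were all chosen after these promoters were read, so their presence in them is not set against chance, and the letters are those of the reference haplotype, not of the cell lines.
HLA-DRB1 (chr6:32589879-32590018, minus strand): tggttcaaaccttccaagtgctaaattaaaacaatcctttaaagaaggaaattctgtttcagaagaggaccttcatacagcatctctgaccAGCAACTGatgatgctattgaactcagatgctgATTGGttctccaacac
HLA-DQA1 (chr6:32637236-32637375, plus strand): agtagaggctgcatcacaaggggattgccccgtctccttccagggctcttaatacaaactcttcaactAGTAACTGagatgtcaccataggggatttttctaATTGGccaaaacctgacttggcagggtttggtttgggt
HLA-DQB1 (chr6:32666688-32666827, minus strand): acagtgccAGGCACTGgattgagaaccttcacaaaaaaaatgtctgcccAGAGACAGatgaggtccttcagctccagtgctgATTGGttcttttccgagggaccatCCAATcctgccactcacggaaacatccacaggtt
HLA-DPB1 (chr6:33075820-33075959, plus strand): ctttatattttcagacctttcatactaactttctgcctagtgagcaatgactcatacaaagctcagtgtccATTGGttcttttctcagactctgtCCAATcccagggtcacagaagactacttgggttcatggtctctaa
HLA-DMA (chr6:32953128-32953267, minus strand): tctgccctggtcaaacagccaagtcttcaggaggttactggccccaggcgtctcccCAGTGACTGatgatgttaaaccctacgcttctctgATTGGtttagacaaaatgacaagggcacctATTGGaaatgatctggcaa
CD74 (chr5:150412941-150413080, minus strand): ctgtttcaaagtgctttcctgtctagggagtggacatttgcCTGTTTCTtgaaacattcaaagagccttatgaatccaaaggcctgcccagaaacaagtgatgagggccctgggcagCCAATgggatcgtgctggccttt
Over the full 300 bases, ATTGG was present in 6 of the 6 and AGNNACNG in 5 of the 6, HLA-DPB1 being the one without it. The longer CTNATTGG, which contains ATTGG, was present in HLA-DRB1, HLA-DQA1, HLA-DQB1 and HLA-DMA, and these same 4 held AGNNACNG followed within 40 bases by ATTGG. Of the 2 matched genes not shown, HLA-DMB held both short patterns but neither CTNATTGG nor the arrangement. HLA-DPA1 has 2 entries, of which 1 held AGNNACNG and neither held ATTGG. Of all 35116 promoters in the table, 34.6% held ATTGG, 48.4% AGNNACNG, 6.81% CTNATTGG and 1.77% the arrangement. The arrangement was searched on either strand for this share, but only on the gene's strand in the members. The X pattern began at position -79 in HLA-DRB1, -102 in HLA-DQA1 and -113 in HLA-DMA. The matches describe letters, not bound sites.

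Libraries held 8.18 to 37.1 M counts. Levels are given as CPM, counts of a gene per M counts of the library, scaled between libraries by TMM. The file names carry 4 different SLX codes. Libraries that share a code are called a pool here, a reading of the file names alone. For NALM6 and 697 the etoposide pool differs from the untreated pool, so pool and treatment cannot be told apart in the pre-B lines. For each of the other 4 lines both treatments share a pool. Genes with at least 1 read numbered 15908 to 17097 in the pre-B etoposide libraries and 13917 to 14978 in the pre-B untreated libraries. In RAMOS they numbered 15078 to 15785 after etoposide and 14114 to 15663 without it. The part of this gap in genes read in NALM6 and 697 only after etoposide was not tested. Nothing in the labels says that replicates came from separate cultures, so the p-values measure the spread between libraries, which may be technical. Most protein-coding genes of the MHC on chromosome 6 were read at a low level, and this limits the 8 HLA genes. Of 145 protein-coding genes between GABBR1 and KIFC1, 82.8% averaged under 1 CPM without TMM scaling, against 30.98% of 17445 protein-coding genes elsewhere. DDX39B and MRPS18B, housekeeping genes of that region, had at most 5 reads and at most 1 read in any library. HLA genes differ greatly between people and resemble each other, and the reference build hg19, which the submitters' processing notes name, also holds alternate versions of the MHC. Whether those were used is not stated in the sources used here. The DR beta gene HLA-DRB3, absent from the GRCh38 primary assembly annotation (GENCODE v29), had 2777 reads in all libraries. A gene outside that assembly was therefore counted. The part of the alternate versions in the low counts was not tested. HLA values are therefore compared between treatments within a line, and a low HLA level is not read as absence of the gene product. CIITA on chromosome 16 (GRCh38 10866222 to 10943021) and CD74 on chromosome 5 (150401637 to 150412929) lie outside the region.

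**Figure D1:**
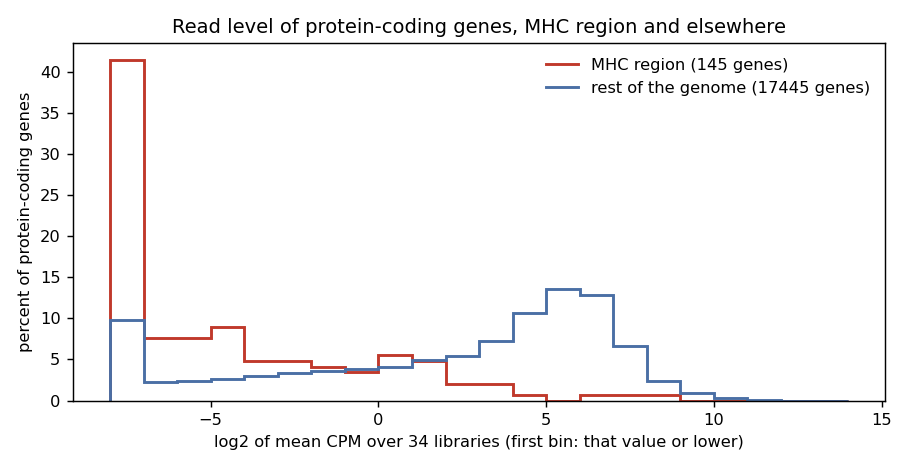
Share of protein-coding genes (percent, vertical axis) by log2 of the mean CPM over 34 libraries (horizontal axis), for genes of the MHC region and of the rest of the genome. CPM here is without TMM scaling. The region's genes pile up at the low end, where 82.8% of 145 lie under 1 CPM, against 30.98% of 17445 elsewhere.

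CIITA, the switch of the class II genes, rose in the 3 B-lineage lines. It was not called in THP1 or U937 and had too few reads for a test in JURKAT. In NALM6 it stood at 320, 320 and 323 CPM in the etoposide libraries, against 92.8, 102 and 96.9 CPM in the untreated libraries. Every etoposide library lay far above the highest untreated one. This was a 3.34-fold increase, a log2 change of 1.74 ± 0.0487 (SE, edgeR adjusted p = 1.082e-32). In 697 it stood at 255 and 257 CPM after etoposide and at 51.0, 42.5 and 49.95 CPM without it. The increase was 5.40-fold, a log2 change of 2.43 ± 0.0713 (edgeR adjusted p = 1.75e-14), and the etoposide libraries were both far above the untreated ones. In RAMOS, within 1 pool, CIITA stood at 201, 179 and 196 CPM after etoposide, against 93.0, 102 and 93.9 CPM without it. The groups did not overlap here either, and the increase was 1.99-fold, a log2 change of 0.99 ± 0.0447 (edgeR adjusted p = 1.343e-25). Among all genes tested, 11.7% in NALM6, 9.82% in 697 and 6.90% in RAMOS had a higher log2 change than CIITA. Groups without overlap were common, at 80.5% of all genes tested in NALM6, 83.5% in 697 and 68.7% in RAMOS. A lack of overlap is therefore not particular to CIITA or to the members below.

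CD74, the invariant chain gene and the most read of the 10 in the B-lineage lines, rose in the same 3 lines by smaller factors. In NALM6 it stood at 2749, 2361 and 2565 CPM after etoposide, against 1467, 1632 and 1472 CPM without it, a 1.70-fold increase (log2 change 0.76 ± 0.0427, edgeR adjusted p = 2.65e-20). In 697 it stood at 1958 and 2160 CPM after etoposide, against 1117, 1171 and 1267 CPM without it, a 1.76-fold increase (0.82 ± 0.0610, edgeR adjusted p = 4.633e-09). In both pre-B lines every etoposide library was well above every untreated one. In RAMOS it stood at 2287, 1985 and 2140 CPM after etoposide, against 1708, 1893 and 1808 CPM without it. The lowest etoposide library was close to the highest untreated one, and the increase was 1.18-fold (0.24 ± 0.0402, edgeR adjusted p = 5.655e-07).

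**Figure D2:**
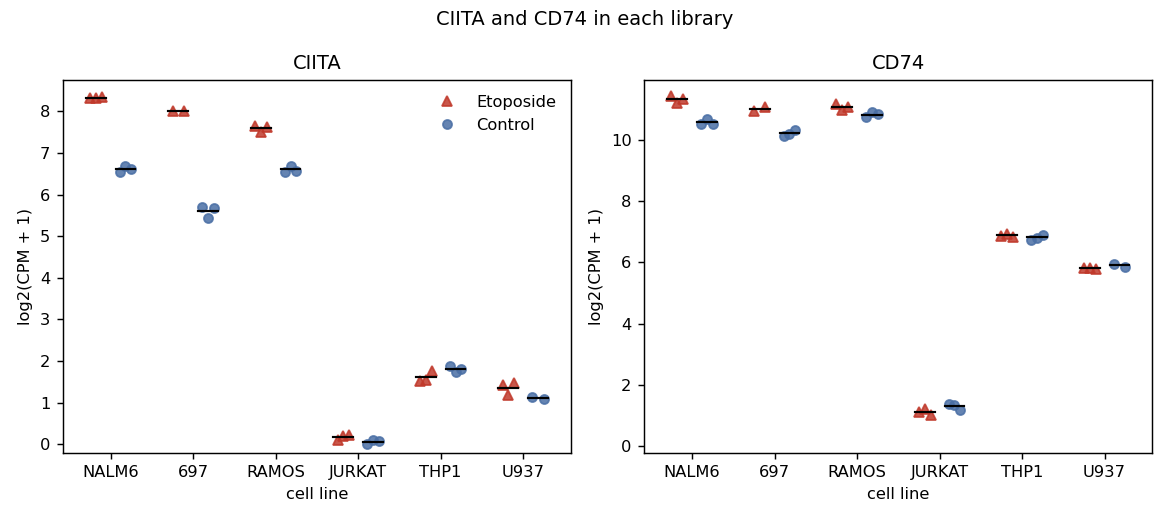
CIITA and CD74 in every library, as log2(CPM + 1) on the vertical axis, for each cell line, etoposide (triangles) left of control (circles), with the group mean as a bar. Etoposide libraries lie above control in NALM6, 697 and RAMOS for both genes, with CIITA at 179 to 323 CPM after etoposide against 42.5 to 102 CPM in control.

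The DR genes encode the class II molecule that B cells carry in the largest amount. HLA-DRA, its alpha chain gene, stood at 71.9, 68.4 and 70.5 CPM in etoposide-treated NALM6, against 40.97, 41.3 and 39.2 CPM in untreated NALM6. It rose 1.76-fold (log2 change 0.81 ± 0.0673, edgeR adjusted p = 4.584e-15), with a wide gap between the groups. In 697 it stood at 5.38 and 4.72 CPM after etoposide and at 6.10, 2.91 and 2.31 CPM without it. The groups overlapped through untreated replicate 1, and the change did not pass (0.44 ± 0.378, edgeR adjusted p = 0.319). Leaving out 1 library gave 0.16 to 1.00 on the log2 scale, and it passed without untreated replicate 1 (1.00, edgeR adjusted p = 0.00345) but in none of the other 4 such fits. In RAMOS HLA-DRA had 11 reads in all after etoposide and 3 in all without it, a ratio of 3.85 (95% counting interval 1.02 to 21.5), although CD74 was abundant there. HLA-DRB1, the polymorphic beta chain gene, stood at 120 and 118 CPM in etoposide-treated 697, against 45.1, 49.7 and 50.7 CPM in untreated 697. It rose 2.49-fold (1.31 ± 0.0685, edgeR adjusted p = 2.106e-11). It had 9 reads in etoposide-treated NALM6 and 7 in untreated NALM6, and 7 reads in etoposide-treated RAMOS and 6 in untreated RAMOS, too few to test.

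The paralog HLA-DRB3 held the DR beta reads of NALM6. It averaged 37.7 ± 1.24 CPM after etoposide and 17.5 ± 1.68 CPM without it (SD, n = 3 each), a log2 change of 1.11 ± 0.0877 (edgeR adjusted p = 1.041e-15). It had at most 5 reads per group in the other 5 lines. In 697 the DR pseudogene HLA-DRB6 averaged 5.57 ± 1.31 CPM (n = 2) after etoposide and 2.03 ± 0.704 CPM (n = 3) without it, a log2 change of 1.46 (edgeR adjusted p = 0.0001431). The DR beta genes are near-identical in long stretches, so the division of reads among them is uncertain. Of the other class II genes on the list, 9 in all, 1 was tested in NALM6 and rose, 2 were tested in 697 of which 1 rose, and 1 tested in RAMOS did not pass, too few to set beside the shares of all genes given below.

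The DQ genes were well read in 697 alone among the B-lineage lines, and the DQ alpha chain gene moved more than any other member. HLA-DQA1 stood at 59.9 and 62.8 CPM in etoposide-treated 697, against 3.80, 5.76 and 4.56 CPM in untreated 697. It rose 13.3-fold (log2 change 3.74 ± 0.125, edgeR adjusted p = 8.13e-14). HLA-DQB1, its beta chain partner, stood at 18.6 and 16.3 CPM after etoposide, against 4.76, 4.09 and 4.81 CPM without it. It rose 3.86-fold (1.95 ± 0.145, edgeR adjusted p = 2.253e-09). Both genes had clear gaps between the groups. HLA-DQA1 had no read in NALM6 and 1 read in RAMOS.

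The DP genes gave a single well-read case. HLA-DPB1, the DP beta chain gene, stood at 37.7, 34.6 and 37.8 CPM in etoposide-treated RAMOS, against 27.7, 30.96 and 27.7 CPM in untreated RAMOS. It rose 1.27-fold without overlap (log2 change 0.35 ± 0.0700, edgeR adjusted p = 2.037e-05). The call was lost in a fit of all 34 libraries (edgeR adjusted p = 0.0848). In 697 it stood at 0.684 and 1.90 CPM after etoposide and at 1.23, 0.833 and 1.45 CPM without it, and did not pass (0.05 ± 0.465, edgeR adjusted p = 0.930). HLA-DPA1, the partner alpha chain gene, had 1 read in all 34 libraries together.

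Of the HLA-DM pair, HLA-DMA stood at 1.81 and 1.83 CPM in etoposide-treated 697, against 0.749, 0.971 and 0.502 CPM in untreated 697. It rose 2.52-fold (log2 change 1.34 ± 0.401, edgeR adjusted p = 0.00628), on 61 reads in all after etoposide and 38 in all without it. HLA-DMB had 11 reads in 1 etoposide library of NALM6 and none in the other NALM6 libraries, and 4 reads in the remaining lines together.

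**Figure D3:**
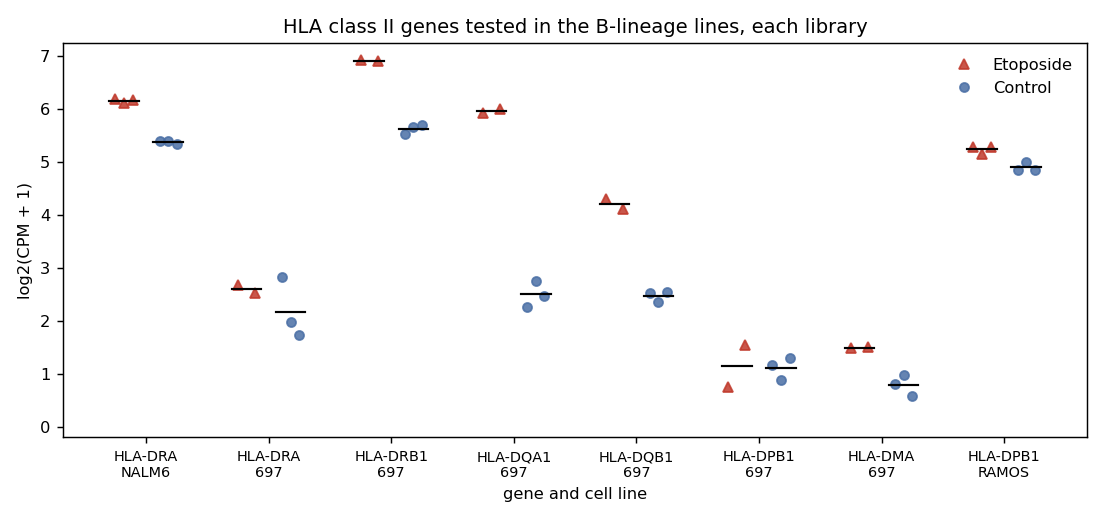
The HLA class II genes tested in the B-lineage lines, as log2(CPM + 1) in every library (vertical axis), etoposide (triangles) left of control (circles), with the group mean as a bar. HLA-DQA1 in 697 shows the widest gap, 59.9 and 62.8 CPM after etoposide against 3.80 to 5.76 CPM in control, and HLA-DRA and HLA-DPB1 in 697 overlap.

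Counted over the members with enough reads for a test, 3 of 3 rose in NALM6, where 41.3% of all tested genes rose and 40.3% fell. In 697, 6 of 8 rose, against 39.4% of all genes rising and 36.9% falling. In RAMOS, 3 of 3 rose, against 34.2% rising and 35.5% falling. None of these members fell. The median log2 change of the tested members was 0.81 in NALM6, 1.33 in 697 and 0.35 in RAMOS, beside medians over all genes of 0.01, 0.05 and 0.00. With so many genes called, the members' counts in NALM6 and RAMOS rest on 3 genes each. The members not tested had few reads. Among them the counting interval of HLA-DRA in RAMOS lay above 1, but it covers counting error only, and the etoposide and untreated libraries overlapped in CPM. HLA-DMB in NALM6 was at least 4.97-fold higher against a floor of 3 reads over the group, but all 11 reads lay in 1 library. No direction is read for any member not tested.

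In the T cell and monocyte lines no member was called in either direction. In JURKAT 0 of 3 tested members passed, where 6.71% of all genes rose and 6.27% fell. In THP1 it was 0 of 4, beside 14% rising and 17.0% falling, and in U937 0 of 3, beside 22.1% rising and 22.1% falling. No tested member of these lines had an unadjusted p under 0.05 by edgeR, and DESeq2 called none. CIITA stood at 1.87, 1.94 and 2.37 CPM in etoposide-treated THP1, against 2.66, 2.33 and 2.50 CPM in untreated THP1, and the groups overlapped (log2 change -0.28 ± 0.245, edgeR adjusted p = 0.416). In U937 it stood at 1.69, 1.26 and 1.78 CPM after etoposide, against 1.19 and 1.12 CPM without it. These did not overlap, but the change of 0.44 ± 0.334 did not pass (edgeR adjusted p = 0.302). Of all genes tested in U937, 62.4% did not overlap either. In JURKAT CIITA had 8 reads in all after etoposide and 2 in all without it, a ratio of 2.91 with a 95% counting interval of 0.582 to 28.2, so no difference was detectable.

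CD74 in the same lines was tightly measured in the monocyte lines. It stood at 116, 120 and 113 CPM in etoposide-treated THP1, against 105, 111 and 119 CPM in untreated THP1 (log2 change 0.06 ± 0.0501, edgeR adjusted p = 0.382). In U937 it stood at 55.5, 55.5 and 53.9 CPM after etoposide, against 61.1 and 56.6 CPM without it (-0.11 ± 0.0676, edgeR adjusted p = 0.208). HLA-DRB1 in THP1 stood at 37.1, 38.1 and 40.4 CPM after etoposide, against 34.98, 36.6 and 39.3 CPM without it (0.06 ± 0.0709, edgeR adjusted p = 0.588). HLA-DQB1 in THP1 changed by 0.11 ± 0.112 (edgeR adjusted p = 0.511). The remaining tested members were low, namely HLA-DRB1 in U937 at -0.10 ± 0.292, and CD74, HLA-DRB1 and HLA-DQB1 in JURKAT at -0.31 ± 0.297, -0.15 ± 0.332 and -0.36 ± 0.237, with edgeR adjusted p between 0.370 and 0.823. In THP1, where CD74, HLA-DRB1 and HLA-DQB1 were well read, their SE of 0.0501 to 0.112 on the log2 scale was small beside the increases of 697.

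**Figure D4:**
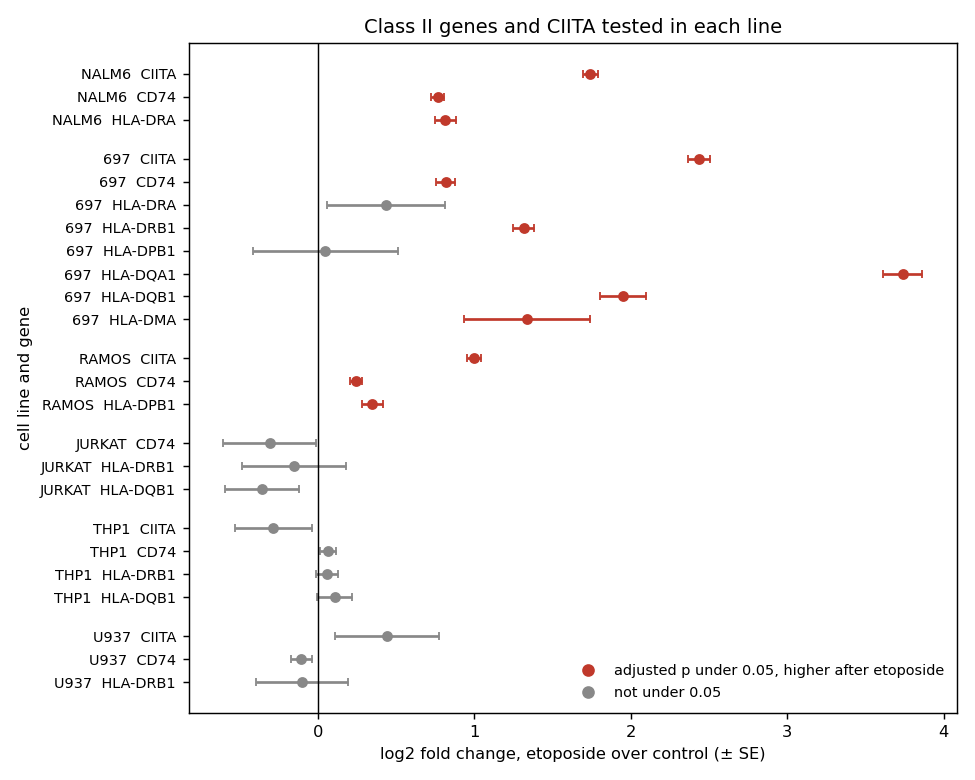
Log2 fold change, etoposide over control, with its SE (horizontal axis) for each member tested in each line (rows). All 12 called values lie to the right of 0 in NALM6, 697 and RAMOS, and no value of JURKAT, THP1 or U937 is called.

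Whether the etoposide effect itself differed between lines was tested for members with at least 20 reads in each line of the contrast. Between RAMOS and the mean of the 2 pre-B lines, 2 of 2 members differed, where 52.9% of all genes did. The log2 change of CIITA was lower in RAMOS by a difference of -1.08 ± 0.0776 (edgeR adjusted p = 9.688e-20), and that of CD74 by -0.53 ± 0.0676 (edgeR adjusted p = 5.293e-10). The pre-B changes set etoposide libraries of 1 pool against untreated libraries of another, so in this contrast the difference between lines and the pool of the pre-B libraries cannot be told apart. Between NALM6 and 697, whose libraries shared the same pools, 1 of 3 members differed, beside 31.2% of all genes. CIITA rose less in NALM6 (difference -0.69 ± 0.0930, edgeR adjusted p = 7.381e-09), while the difference was -0.05 ± 0.0812 for CD74 (edgeR adjusted p = 0.751) and 0.37 ± 0.306 for HLA-DRA (edgeR adjusted p = 0.415). Without untreated replicate 1 of 697 the HLA-DRA difference was -0.19. Between THP1 and U937, 0 of 3 differed, beside 13% of all genes. CIITA had an unadjusted p of 0.00985 there, the one under 0.05 (difference -0.73 ± 0.275, edgeR adjusted p = 0.0665). Between the mean of the B-lineage lines and the mean of the other 3 lines, a contrast added after seeing the data, CD74 was the 1 member with enough reads. Its log2 change was higher in the B-lineage lines by 0.71 ± 0.0944 (edgeR adjusted p = 1.477e-09), where 55.1% of all genes differed, and the pool of the pre-B libraries enters this contrast too.

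Without treatment, CIITA was highest in the B-lineage lines and fell off steeply after them. It averaged 97.1 ± 4.39 CPM in NALM6, 96.4 ± 5.19 CPM in RAMOS, 47.8 ± 4.62 CPM in 697, 2.50 ± 0.167 CPM in THP1, 1.15 ± 0.0502 CPM in U937 and 0.0412 ± 0.0368 CPM in JURKAT (SD, n = 3, 2 for U937). NALM6 and RAMOS, the first neighbours in that order, did not differ beyond their spread (edgeR adjusted p = 0.942), in a comparison where 69.2% of all genes were called. The following neighbours all differed, 697 from RAMOS (edgeR adjusted p = 1.978e-22, 71.7% of all genes called), 697 from THP1 (1.482e-47, 78.8% called), THP1 from U937 (3.492e-06, 71.3% called) and JURKAT from U937 (4.838e-11, 77.8% called). CD74 averaged 1803 ± 92.98 CPM in RAMOS, 1524 ± 94.1 CPM in NALM6, 1185 ± 75.6 CPM in 697, 112 ± 6.65 CPM in THP1, 58.9 ± 3.21 CPM in U937 and 1.48 ± 0.187 CPM in JURKAT. Each of its neighbours differed, NALM6 from RAMOS with an edgeR adjusted p of 6.489e-05 and NALM6 from 697 with 2.718e-08, in a comparison where 57.1% of all genes were called. Most of these pairs also differ in pool, and the part of the pool was not tested.

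After etoposide the CIITA level of 697 (256 ± 1.13 CPM, n = 2) lay above that of RAMOS (192 ± 11.5 CPM, n = 3), the reverse of the untreated order. This difference after treatment was not tested. Per kilobase of annotated exon sequence, CD74 averaged 671 ± 47.3 CPM per kb in etoposide-treated RAMOS and 566 ± 29.2 CPM per kb in untreated RAMOS, and CIITA 9.26 ± 0.552 CPM per kb after etoposide and 4.64 ± 0.250 CPM per kb without it. On the same per-length scale HLA-DRA averaged 54.9 ± 1.38 CPM per kb in etoposide-treated NALM6 and 31.6 ± 0.872 CPM per kb in untreated NALM6. CD74 averaged 803 ± 60.9 CPM per kb in etoposide-treated NALM6 and 479 ± 29.6 CPM per kb in untreated NALM6. HLA-DRA lies in the MHC region, which was read at a low level. Its gap to CD74 is therefore not read as a difference in transcript amount. The exon union of CIITA is 20757 bases long, so its per-length value is an underestimate if most transcripts are shorter. The 8 HLA members together averaged 206 ± 0.484 CPM in etoposide-treated 697 and 63.5 ± 1.41 CPM in untreated 697, and 37.1 ± 1.64 CPM in etoposide-treated RAMOS and 29.1 ± 1.80 CPM in untreated RAMOS. One HLA gene held most of that sum in each B-lineage line, HLA-DRA with 99.03% in etoposide-treated NALM6, HLA-DRB1 with 57.8% in etoposide-treated 697 and HLA-DPB1 with 98.8% in etoposide-treated RAMOS. These sums and shares describe counted reads of the 8 members alone, in a region read at a low level. The sums are not compared between lines. HLA-DRB3, which is not a member and held the DR beta reads of NALM6, is left out of the sum.

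The factors that hold CIITA on class II promoters included genes that rose and genes that fell. Of the 8 genes of the RFX, NF-Y and CREB factors, 2 rose and 3 fell in NALM6, 3 rose and 3 fell in 697, 5 rose and 2 fell in RAMOS, 1 rose and 1 fell in JURKAT, 1 rose and 2 fell in THP1, and 4 rose and 2 fell in U937. The shares of all tested genes were 41.3% up and 40.3% down in NALM6, 39.4% and 36.9% in 697 and 34.2% and 35.5% in RAMOS. They were 6.71% and 6.27% in JURKAT, 14% and 17.0% in THP1, and 22.1% and 22.1% in U937. RFX5, the DNA-binding subunit of RFX, averaged 289 ± 12.3 CPM in etoposide-treated NALM6 and 176 ± 7.95 CPM in untreated NALM6. It rose 1.66-fold there, 2.00-fold in 697 and 1.65-fold in RAMOS (edgeR adjusted p = 1.481e-18, 2.313e-11 and 1.602e-22), and fell by 0.31 in JURKAT, 0.17 in THP1 and 0.24 in U937 on the log2 scale (edgeR adjusted p = 0.0008475, 0.003369 and 0.001096). RFXAP, the subunit that links the complex, fell by 1.35 in NALM6, by 1.95 in 697 and by 0.37 in RAMOS on the log2 scale (edgeR adjusted p = 1.794e-14, 1.033e-08 and 0.0102), and rose 1.24-fold in JURKAT. RFXANK, the third subunit, was not called in any line. NFYA, the regulatory subunit of NF-Y, rose in 5 lines, by 1.13-fold in NALM6 up to 1.67-fold in RAMOS, and not in JURKAT.

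Of 17 listed regulators of CIITA transcription, 16 were tested in NALM6, of which 6 rose and 8 fell, and 16 in 697, of which 10 rose and 4 fell. In RAMOS 17 were tested, of which 5 rose and 8 fell. In JURKAT 0 of 13 were called by edgeR, with 2 at an unadjusted p under 0.05. In THP1 1 of 16 rose and 5 fell, and in U937 3 of 15 rose and 4 fell. All genes tested gave 41.3% up and 40.3% down in NALM6, 39.4% and 36.9% in 697 and 34.2% and 35.5% in RAMOS. They gave 6.71% and 6.27% in JURKAT, 14% and 17.0% in THP1, and 22.1% and 22.1% in U937. IRF1, an activator of the interferon-responsive CIITA promoter, rose 2.03-fold in NALM6, 1.62-fold in 697 and 3.99-fold in RAMOS (edgeR adjusted p = 2.875e-22, 1.582e-08 and 3.346e-31). It also rose 1.34-fold in THP1 and 1.45-fold in U937 (edgeR adjusted p = 1.104e-06 and 1.661e-06). CIITA was low in both lines and not called, with an SE of 0.245 and 0.334 on the log2 scale, so a change as small as that of IRF1 could be missed. IRF2, a relative of IRF1 that binds the same element, had log2 changes of -1.54 in NALM6, -2.62 in 697, -1.64 in RAMOS, -0.34 in THP1 and -0.49 in U937. Each was called. The B-lineage factor gene EBF1 averaged 26.2 ± 0.595 CPM in etoposide-treated NALM6 and 313 ± 15.7 CPM in untreated NALM6, and fell by 3.56 in NALM6, 3.72 in 697 and 1.55 in RAMOS on the log2 scale. PAX5, which maintains B cell identity, fell by 1.62 in NALM6, fell by 2.38 in 697 and fell by 1.00 in RAMOS on the log2 scale. PRDM1, which encodes BLIMP1, a repressor of CIITA in plasma cells, averaged 40.5 ± 0.967 CPM in etoposide-treated 697 and 4.49 ± 0.519 CPM in untreated 697. It rose 7.48-fold in NALM6, 9.19-fold in 697 and 3.56-fold in RAMOS, and also 2.97-fold in U937 (edgeR adjusted p = 1.189e-09), where CIITA was low and not called.

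SOCS1, a feedback inhibitor of interferon signalling, rose 18.5-fold in NALM6 and 20.04-fold in 697, and fell by 0.49 on the log2 scale in RAMOS (edgeR adjusted p = 1.354e-22, 7.714e-13 and 7.086e-05). IFNG itself, the classic inducer of CIITA, had 43 reads in etoposide-treated 697, of which 38 lay in 1 library, and none in untreated 697, at least 24.5-fold more against a floor of 3 reads over the group. In RAMOS IFNG had 76 reads after etoposide and 51 without it and did not pass (edgeR adjusted p = 0.128), and in NALM6 it had 1 read and 0 reads.

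Genes that act on CD74 and class II in the endosome were counted in the same way, and their counts lie near the shares of all genes in RAMOS (34.2% up and 35.5% down). Of the 9 tested in NALM6, 3 rose and 5 fell, of 9 in 697, 5 rose and 2 fell, and of 10 in RAMOS, 4 rose and 4 fell. In JURKAT 1 of 9 fell, in THP1 2 of 10 fell, and in U937 1 of 9 rose and 2 fell. Shares of all genes up and down were 41.3% and 40.3% in NALM6 and 39.4% and 36.9% in 697. They were 6.71% and 6.27% in JURKAT, 14% and 17.0% in THP1, and 22.1% and 22.1% in U937. SPPL2A, the protease that clears the last membrane stub of CD74, rose 1.61-fold in NALM6, 1.95-fold in 697 and 2.13-fold in RAMOS. LGMN, an endosomal protease, had 139 reads in etoposide-treated NALM6 and 43 in etoposide-treated 697, with none in untreated libraries of these lines, at least 62.9-fold and 24.5-fold more. In RAMOS it rose 2.11-fold. IFI30, a thiol reductase of antigen processing, rose 2.76-fold in 697 and 2.17-fold in RAMOS, and fell by 0.56 on the log2 scale in NALM6. AP3B1, an adaptor of endosomal sorting, fell by 1.23, 1.28 and 0.65 on the log2 scale in NALM6, 697 and RAMOS.

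Class I genes, several of them in the same region of chromosome 6, were read in the same way. Of 6 tested in NALM6, 4 rose and 1 fell, of 6 in 697, 5 rose and 1 fell, and of 7 in RAMOS, 6 rose and 1 fell, beside 41.3%, 39.4% and 34.2% of all genes rising and 40.3%, 36.9% and 35.5% falling in these lines. In JURKAT 0 of 6 rose and 1 fell, in THP1 2 rose and 1 fell, and in U937 1 rose and 1 fell. Of all genes, 6.71% rose and 6.27% fell in JURKAT, 14% and 17.0% in THP1, and 22.1% and 22.1% in U937. HLA-B, a class I heavy chain gene, rose 4.49-fold in NALM6, 3.43-fold in 697 and 2.29-fold in RAMOS, and HLA-C rose 2.17-fold, 1.79-fold and 2.19-fold. NLRC5, the class I counterpart of CIITA, went a different way, rising 1.61-fold in NALM6 and with log2 changes of -0.24 in 697 and -2.23 in RAMOS (edgeR adjusted p = 9.039e-15, 0.00235 and 1.35e-33).

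**Figure D5:**
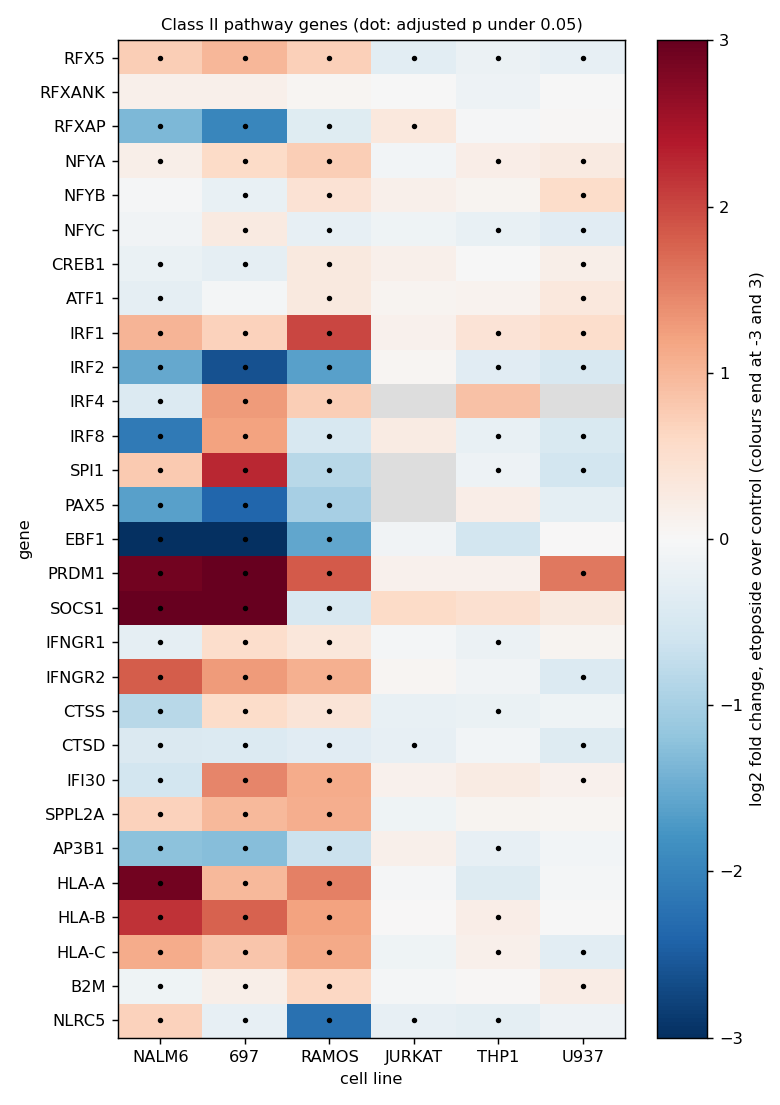
Log2 fold change, etoposide over control (colour, ending at -3 and 3), of genes of the class II enhanceosome, CIITA regulators, antigen processing and class I (rows) in each line (columns), with a dot at an adjusted p under 0.05 and grey where a gene was not tested. RFX5 is red in NALM6, 697 and RAMOS (1.65-fold to 2.00-fold) and blue in the other 3 lines, and EBF1 and PAX5 are blue in the B-lineage lines.

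Markers of other cell types that carry class II were read beside these values. The 8 monocyte markers summed to 8.11 to 10.9 CPM in etoposide-treated NALM6 and 1.33 to 2.22 CPM in untreated NALM6, and to 83.1 to 88.1 CPM in etoposide-treated 697 and 5.69 to 7.52 CPM in untreated 697. Most of these sums after etoposide was ITGAM, with 2673 reads in etoposide-treated 697 and 2 in untreated 697. CD14 was low but rose 2.25-fold in NALM6 and 8.60-fold in 697 (edgeR adjusted p = 0.00585 and 0.0003005), with 61 reads in etoposide-treated NALM6 and 33 in untreated NALM6, and 47 in etoposide-treated 697 and 8 in untreated 697. CSF1R fell by 0.67 in 697 and LYZ fell by 1.01 in NALM6 on the log2 scale (edgeR adjusted p = 0.00970 and 0.0362). S100A8 and S100A9 had no read in either pre-B line and FCN1 had none in 697. The 6 dendritic cell markers summed to 5.61 to 7.08 CPM in etoposide-treated NALM6 and 0.140 to 0.487 CPM in untreated NALM6, and to 7.01 to 7.28 CPM in etoposide-treated 697 and 0.201 to 0.428 CPM in untreated 697, mostly LAMP3. CD1C rose 8.72-fold in NALM6 (edgeR adjusted p = 6.037e-07), and FCER1A had 17 reads in etoposide-treated NALM6 and 7 in etoposide-treated 697 with none in untreated libraries, at least 7.69-fold and 3.98-fold more. CLEC9A and CLEC10A were at 0 in both lines. The highest dendritic sums lay in the T cell line JURKAT, at 92.9 to 109 CPM after etoposide and 113 to 119 CPM without it. The list is thus not particular to dendritic cells here. JURKAT libraries share the pool of the etoposide-treated NALM6 and 697 libraries, and the part of the pool was not tested. In RAMOS the monocyte sums overlapped, at 2.67 to 3.75 CPM after etoposide and 2.30 to 3.46 CPM without it, and the dendritic sums were 23.8 to 25.3 CPM after etoposide and 18.5 to 22.0 CPM without it. The lines' own B cell markers went the other way from CIITA. The 7 mature B markers summed to 2501 to 2567 CPM in etoposide-treated RAMOS and 3680 to 3978 CPM in untreated RAMOS, and the 7 pre-B markers to 1361 to 1478 CPM in etoposide-treated NALM6, against 3563 to 3849 CPM in untreated NALM6, and to 1601 to 1657 CPM in etoposide-treated 697, against 4462 to 4612 CPM in untreated 697. The part of these shifts in the class II values was not tested, and in bulk RNA fewer cells of a type and less RNA per cell cannot be told apart.

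Over the 12 group means of log2(CPM + 1), the genes most like CIITA among 12846 candidates were CEP68 (Pearson r = 0.972), IRF4 (0.967), SNORA8 (0.964), MRPL27 (0.963), H3F3C (0.963) and TRIB1 (0.958). IRF4, a B-lineage transcription factor, ranged between 0.112 and 820 CPM over the groups, and rose 2.44-fold in 697 and 1.67-fold in RAMOS but fell by 0.40 on the log2 scale in NALM6, where CIITA rose. The genes most like the mean profile of the other 9 members were the translation genes RPL27 (0.970), RPS6 (0.965), EEF1B2 (0.959), RPS13 (0.958), RPS2 (0.957) and RPL5 (0.955). CIITA and CD74 had an r of 0.927 over the same 12 points, which come in pairs that share a line and, mostly, a pool. These are descriptions, since the 12 groups are dominated by the difference between B-lineage and other lines.

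Of the 24 member tests made here, 21 also had an adjusted p in the authors' deposited table, and 20 of those agreed in call. The exception was CIITA in NALM6, with a log2 fold change of 0.71 and an adjusted p of 0.228 in the authors' deposited table, against 1.74 from the deposited counts. In the authors' deposited table CIITA changed by 2.43 in 697 and 1.00 in RAMOS, and HLA-DRA in NALM6 by 0.39. The Wald statistic in 4 of the authors' deposited tables, those of NALM6, JURKAT, THP1 and U937, has the sign opposite to the fold change. The fold change was read as etoposide over control, since over all genes called there it had the sign of the deposited counts in 98.03% in NALM6 and in 99.98% or more in the other lines. The sign differed for 1 member pair, HLA-DRA in 697, at -0.31 in the authors' deposited table and 0.44 here. The reason for these differences was not tested.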

How the data were processed

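Total RNA was extracted with Trizol and made into TruSeq libraries, per the labels' protocols. The authors deposited whole-number read counts per gene symbol for 34 libraries, named as htseq-count output per the file names. HISAT, HTSeq, DESeq2 and hg19 are given, per the submitters' processing notes, without versions. The comparison tables the authors deposited give, per the file headers, log2 fold changes beside p-values and adjusted p-values, and were used for 1 comparison of calls.

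Counts were tested in R 4.3.3 with edgeR 4.0.16 (quasi-likelihood test, robust setting), per line, with TMM scaling, a minimum count of 10 (filterByExpr), two-sided p-values and Benjamini-Hochberg adjustment over all genes tested, called under 0.05. Differences between lines and untreated levels came from 1 edgeR fit of all 34 libraries. That fit also scaled the printed CPM, except in the shares of MHC region genes and their figure. The scripts were tested on simulated counts. Total counts ran between 8.18 and 37.1 M per library. Intervals and floors (3 reads, 95%) cover counting error only. Contrast members needed 20 reads per line, a limit set after seeing the data.

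All 10 members are reported, up to 4 genes per list and line by smallest adjusted p, and the 6 genes most like each profile. A gene that met this rule in 1 line is also given in others. IFNG, IFNGR1 and IFNGR2 lie outside it and were named after their values were seen. The result of 1 listed gene is not reported here. The members and lists were chosen with earlier results of these data known. Alternatives were DESeq2 1.42.0, RLE scaling, total counts, scaling without MHC genes, other filters, 1 fit of all libraries, a replicate block and leaving out libraries.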

Additional observations from a re-analysis of the deposited data

Results flagged for a closer look

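Among the members, the etoposide effect differed between lines in 4 tests in the fit of all libraries. The difference of log2 changes was -1.08 for CIITA and -0.53 for CD74 in RAMOS minus pre-B, and -0.69 for CIITA in NALM6 minus 697. It was 0.71 for CD74 in the mean of the 3 B-lineage lines minus the mean of the other 3 lines, a contrast added after seeing the data. In the pre-B lines etoposide and untreated libraries lay in different pools, so pool and line cannot be told apart in RAMOS minus pre-B, and the pool enters the last contrast as well.

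Several genes of the pathway lists changed in opposite directions in different lines, and the test of the difference passed for each (edgeR adjusted p at most 0.0001567). In NALM6 minus 697 the differences of log2 changes were -1.69 for IRF4, -3.35 for IRF8, -0.81 for IFNGR1, -1.37 for CTSS, -2.03 for IFI30, -0.32 for B2M and 0.92 for NLRC5. In RAMOS minus pre-B they were 0.54 for CREB1, -2.35 for SPI1 and -4.72 for SOCS1. In B-lineage minus other lines they were 1.04 for RFX5, -1.35 for RFXAP and 1.51 for IFNGR2.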

How the results depend on the processing

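CIITA and CD74 were called in NALM6, 697 and RAMOS under every alternative run. The count of members that rose in 697 was 5 with the replicate block or a minimum count of 50 and 7 without control replicate 1, against 6. It was 4 in NALM6 with no filter, against 3, and 2 in RAMOS in the fit of all 34 libraries, against 3. No count changed in JURKAT, THP1 or U937. Replicate numbers did not pair libraries (correlations of deviations between -0.116 and 0.058). In 697 the etoposide libraries are numbered 1 and 2 in titles and 2 and 3 in file names, so its block is uncertain. With the replicate block, HLA-DMA in 697 was 1.11 (adjusted p = 0.0514), and 2 members instead of 1 differed in NALM6 minus 697, HLA-DRA being added (0.66, adjusted p = 0.0383). Leaving out 1 library, THP1 minus U937 gave 0 to 1 members, CIITA being added without THP1 etoposide replicate 3 (-0.82, adjusted p = 0.0427) or U937 etoposide replicate 2 (-0.88, adjusted p = 0.0291). HLA-DPB1 in 697 was -0.025 in the fit of all 34 libraries. Leaving out 1 library, values crossed 0 for HLA-DPB1 in 697 (-0.79 to 0.71) and HLA-DRB1 in JURKAT (-0.50 to 0.021) and U937 (-0.50 to 0.38). So did differences for CD74 (-0.13 to 0.023) and HLA-DRA (-0.19 to 0.66) in NALM6 minus 697 and HLA-DRB1 in THP1 minus U937 (-0.31 to 0.56). None of these was called in the main analysis. Total-count scaling moved the median of all genes to 0.16 in NALM6 and 0.14 in 697, against 0.01 and 0.05 with TMM. The cause of these shifts was not tested. Where 1 library was left in a group (U937 control, 697 etoposide, as in both ends of the HLA-DPB1 range), it is assumed to vary like the others. Low read numbers limit HLA-DPA1, HLA-DMB and HLA-DMA most, which had 1, 15 and 103 reads in all libraries. The cause of these low numbers was not tested.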
